A study of Mus musculus with 6 samples.

Results

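The ligands and receptors of the tumor necrosis factor (TNF) superfamily were examined in 6 bulk RNA-seq libraries of cells labelled as mouse skull osteoblasts. Members were taken by gene symbol: every Tnfsf or Tnfrsf symbol followed by a number, together with Tnf, Lta, Ltb, Ltbr, Cd40, Cd27, Cd70, Fas, Fasl, Eda2r and Ngfr. The RANKL genes Tnfsf11, Tnfrsf11a and Tnfrsf11b were left out. This gave 39 of the 17830 genes of the count table, 15 ligands and 24 receptors. Cd40lg was not analysed here.

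Calvarial bone chips were taken from mice aged 6 months, the cells that grew out of them were cultured, and tdTomato-positive cells were sorted for RNA. Mice of both genotypes carried mOCN-Cre and Ai9. mOCN-Cre is a knock-in in which P2A-iCre follows the last codon of the endogenous osteocalcin gene Bglap, and Ai9 is a reporter allele that turns on red tdTomato after Cre recombination. The 3 control libraries (mOCN-Cre;Ai9) had only these alleles. The 3 APPswe libraries (TgAPPswe mOCN-Cre;Ai9) also carried a transgene for human APP with the Swedish mutation, transcribed from the CAG promoter and released by Cre. A cell that once expressed Bglap keeps the tdTomato label afterwards, and the CAG promoter is not specific to bone. The labels do not say whether libraries of a genotype came from separate mice or cultures, so the p-values measure the spread between these samples, which may be technical.

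TNF superfamily ligands are mostly membrane proteins that form trimers and can be cleaved into soluble cytokines. Their receptors either carry a death domain, as in Tnfrsf1a and Fas, or bind TRAF adaptors, and both kinds can switch on NF-κB and the MAP kinases. In bone, TNF made by macrophages is known to hold back osteoblast differentiation and to favour osteoclast formation, and T and B cell costimulation runs through other pairs of the family.

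The libraries held between 17263757 and 18398392 counts. At these depths 3 counts, taken as the floor of detection, corresponded to between 0.167 and 0.173 CPM (counts scaled to a common library size after TMM normalization), and this floor covers counting error only. Macrophage markers were abundant, with a median marker at 407 to 754 CPM, so the libraries did not hold osteoblast transcripts alone. Among osteoblast markers, Spp1, Col1a1 and Col1a2 were abundant, while Bglap, the gene that drives Cre, was at 0.0562 to 11.5 CPM. The 13 macrophage markers together reached 18132 to 24911 CPM in control and 12497 to 13488 CPM in APPswe libraries. Of these 13 genes, 8 were lower and 1 was higher in APPswe libraries past the adjusted p of 0.05, with a median log2 fold change of -0.74. The 12 osteoblast markers together reached 17573 to 18838 CPM in control and 11628 to 12258 CPM in APPswe libraries, a sum made up mostly of Spp1, Col1a1 and Col1a2. Of the 12, the osteoblast transcription factors Sp7 (log2 fold change 1.98) and Runx2 (0.63) were higher past the adjusted p and Spp1 (-1.19) was lower, with a median of -0.22. Skeletal muscle markers summed to 1.33 to 8.32 CPM in control and 137 to 143 CPM in APPswe libraries, with all 7 tested called higher, and osteoclast markers to 158 to 287 against 595 to 606 CPM, with 3 of 6 tested called higher. The part of these markers in the member changes was not tested. In a bulk sample, fewer cells of a type and less RNA per cell cannot be told apart. Control replicate 2 stood apart from the others, and it is written here under its label. Its library name carries the letter S where those of the other libraries carry an L, and the labels do not explain these letters. The study describes the mice of this experiment as male. Its 4 Y-linked genes summed to 0.112 CPM against 127 to 197 CPM in the other libraries, and its median osteoblast marker was at 1.91 CPM against 20.9 to 27.8 CPM. Its endothelial markers summed to 1.29 CPM, against 188 and 193 CPM in control replicates 1 and 3 and 7.08 to 8.20 CPM in APPswe libraries. Counts of members called are therefore also given without this library. T cell markers summed to at most 2.98 CPM, B cell markers to at most 1.29 CPM and NK cell markers to at most 0.392 CPM in any library. Of the 4 dendritic cell markers, Flt3 and Xcr1 had 0 counts in every library, Ccr7 had at most 3, and Zbtb46 was called higher, at 18 to 30 counts in control and 55 to 70 counts in APPswe libraries (log2 fold change 1.32, edgeR adjusted p = 0.0145).

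**Figure D1:**
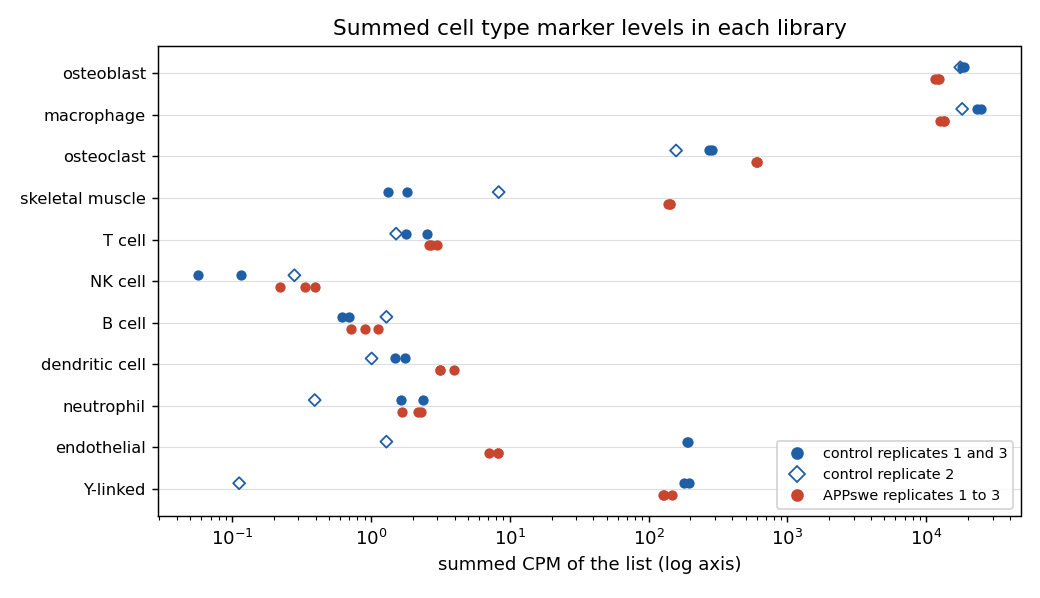
Summed CPM (log axis) of each fixed marker list in each library, one row per list, with control replicates 1 and 3 as blue circles, control replicate 2 as an open diamond and APPswe libraries as red circles. Macrophage markers span 18132 to 24911 CPM in control and 12497 to 13488 CPM in APPswe libraries, and the Y-linked sum of control replicate 2 lies at 0.112 CPM.

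Of the 39 members, 28 had enough counts for the test, 9 ligands and 19 receptors. In APPswe libraries the ligands Tnf and Tnfsf8 and the receptors Cd40, Ngfr and Tnfrsf26 fell, and the ligand Tnfsf15 rose. The receptor Tnfrsf9 was called higher at low counts, which reached the filter for testing only in the APPswe libraries. Together these are the 7 members called, which needed an adjusted p of 0.05 or less (edgeR's quasi-likelihood test, Benjamini-Hochberg over all genes tested) and a log2 fold change of at least 1 in size. That is 7 of 28, where 7.34% of the 13484 genes tested were called. By direction, 5 members were called lower and 2 higher, where 3.6% of all genes were called lower and 3.74% higher. A further 8 members passed the adjusted p with a change under 2-fold, which makes 15 of 28 at the adjusted p alone against 22.5% of all genes. Of these 15, 10 were lower and 5 higher, beside 12.0% and 10.5% of all genes. The 3 APPswe libraries lay wholly below the 3 control libraries for 12 tested members and wholly above for 8, where groups that do not overlap were found for 45.0% of all genes, 22.2% below and 22.8% above. Without control replicate 2 it was 17 members below and 8 above, beside 33.3% and 32.9% of all genes. Members had to pass a filter on low counts to be tested, and 4 of the 28 had fewer than 10 counts in at least 1 library (Tnfrsf9, Tnfrsf25, Tnfrsf4 and Tnfsf4). The other 24 members reached 10 counts in each of the libraries, as did 12628 of the 13484 genes tested. Restricted to genes that reached it, the test called 6 members. The share of all genes called in that fit was not worked out.

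The median log2 fold change was -0.81 over the 9 ligands tested and -0.11 over the 19 receptors tested, beside -0.0033 over all genes. Among ligands, 8 of 9 had a negative value, and among receptors 11 of 19 had one. DESeq2 called 7 members, 6 lower and 1 higher, where it called 7.69% of the genes to which it gave an adjusted p. It called Tnfsf10, which edgeR did not test, and did not call Tnfrsf9. With edgeR, the number called was 4 without control replicate 1 (6.03% of all genes), 4 without APPswe replicate 1 (4.07%), 3 without APPswe replicate 2 (3.85%) and 3 without APPswe replicate 3 (3.72%). Without control replicate 2 it was 11 of 30 tested, where 11.5% of all genes were called in that fit. Of these 11, 8 were lower and 3 higher, beside 6.58% and 4.87% of all genes. At the adjusted p alone 24 of the 30 passed without that library, 17 lower and 7 higher, beside 48.3% of all genes (25.0% lower and 23.3% higher). The 4 members added there were Tnfsf13, Tnfsf18, Tnfsf4 and Tnfrsf25, of which Tnfsf18 reached the filter only through its 2 remaining control libraries. Tnfsf4 had 19 and 21 counts in these controls and 10, 8 and 7 counts in APPswe libraries, so its test there also rested on the controls.

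**Figure D2:**
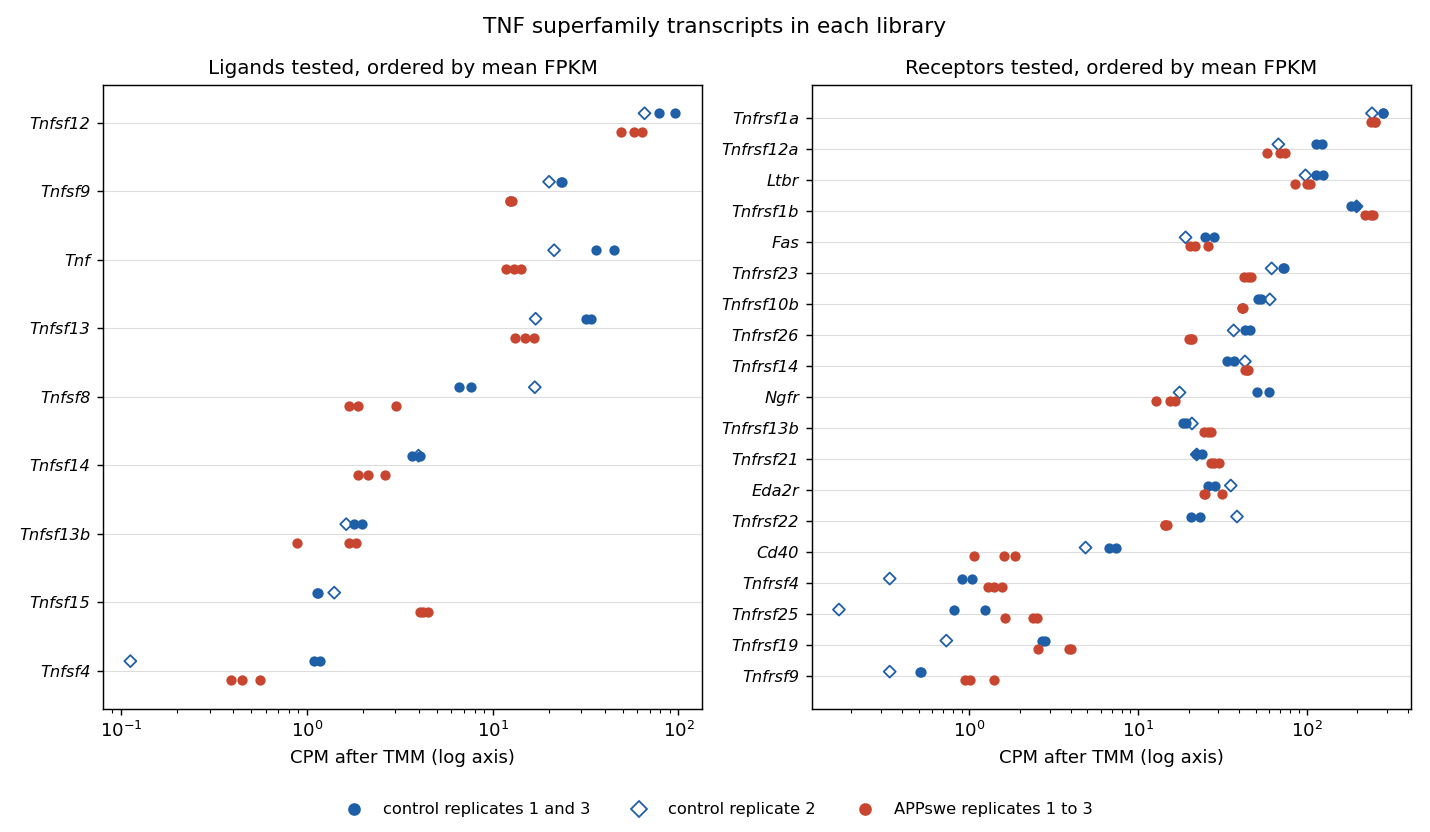
CPM after TMM scaling (log axis) of the 28 tested members in each library, ligands on the left and receptors on the right, with control replicates 1 and 3 as filled blue circles, control replicate 2 as an open diamond and APPswe libraries as red circles. Within a gene the points can be compared; Tnf spans 21.4 to 45.0 CPM in control and 11.8 to 14.2 CPM in APPswe libraries, and for Ngfr and Tnfsf13 the open diamond sits next to the APPswe points.

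Tnf, the founding cytokine of the family, was at 36.1, 21.4 and 45.0 CPM in control replicates 1, 2 and 3 and at 11.8, 13 and 14.2 CPM in APPswe replicates 1, 2 and 3. All 3 APPswe libraries were lower than every control library, and control replicate 2 was the lowest control. The mean fell from 34.2 ± 11.9 to 13 ± 1.19 CPM (SD, n = 3) (log2 fold change -1.40 with a standard error of 0.26, edgeR adjusted p = 0.0131), or 2.63-fold lower. The change was -1.64 without control replicate 2. The adjusted p was 0.0671, 0.0650 and 0.0573 with APPswe replicates 1, 2 and 3 left out in turn, so that the call was lost in each of these fits. Tnf lies at chr17:35199367-35202007 (GRCm38), between Ltb and Lta, which were both near the floor.

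Tnfsf8, the ligand of the lymphocyte receptor Tnfrsf8, was at 7.62, 16.9 and 6.6 CPM in control and 3.03, 1.89 and 1.69 CPM in APPswe libraries. The groups did not overlap, and control replicate 2 was more than 2-fold above the other controls. Tnfsf8 fell by 2.23 on the log2 scale (standard error 0.43, edgeR adjusted p = 0.0144). Without control replicate 2 the log2 fold change was -1.68, and without APPswe replicates 2 or 3 the adjusted p was 0.0755 or 0.0724 and the call was lost.

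Tnfsf15, a ligand of Tnfrsf25 that costimulates T cells and acts on endothelial cells, moved the other way. It was at 1.15, 1.41 and 1.13 CPM in control and 4.49, 4.23 and 4.05 CPM in APPswe libraries, which is 20, 25 and 20 counts against 80, 76 and 72. The spread within each genotype was small beside the gap between them. The log2 fold change was 1.78 (standard error 0.20, edgeR adjusted p = 0.00204), or 3.45-fold higher, and the call held in each fit that left out 1 library. Tnfsf15 (chr4:63724600-63745059) and Tnfsf8 (chr4:63831202-63861508) lie 86.1 kb apart on chromosome 4 and changed in opposite directions.

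Upstream sequence is shown for Tnf and Tnfsf15, the ligands called in opposite directions with the smallest adjusted p in each direction, and for the start of Tnfrsf9 that holds an NF-κB match. RefSeq (GRCm38.p6) gave 250 bases upstream of 35 starts of 31 members. Capitals mark matches, searched on both strands, to the NF-κB consensus, to the AP-1 motif TGANTCA, to the PU.1 motif GAGGAAGT and to TATAAA. The Tnf stretch (chr17:35202008-35202257, minus strand) holds TATAAA starting 29 bases before the start and none of the other motifs. The Tnfsf15 stretch (chr4:63745114-63745309, minus strand) leaves out 54 bases next to an exon boundary that GENCODE places in an exon, and holds no match. The Tnfrsf9 stretch (chr4:150927951-150927980, plus strand) is 30 bases upstream of its second listed start, and 2 overlapping NF-κB matches form the capitals.
Tnf: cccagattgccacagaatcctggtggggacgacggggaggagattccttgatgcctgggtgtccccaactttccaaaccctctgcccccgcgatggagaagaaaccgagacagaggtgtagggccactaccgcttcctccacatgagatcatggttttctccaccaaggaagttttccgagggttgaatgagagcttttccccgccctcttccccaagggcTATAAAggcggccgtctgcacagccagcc
Tnfsf15: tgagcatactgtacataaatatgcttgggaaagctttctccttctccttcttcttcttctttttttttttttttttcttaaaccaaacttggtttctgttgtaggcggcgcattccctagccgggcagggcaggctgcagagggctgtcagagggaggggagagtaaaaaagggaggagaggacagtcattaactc
Tnfrsf9: cagctGGGGATTTCCCaggaggccctgctc

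The NF-κB consensus was found in 4 of the 35 member promoters (11.4%), beside 7.25% of 32851 promoters of the same length. AP-1 was found in 6 of 35 (17.1%, beside 6.75%), PU.1 in 1 (2.86%, beside 2.44%) and TATAAA in 6 (17.1%, beside 12.4%). The NF-κB matches lay upstream of Ltb, Tnfrsf25, Tnfrsf8 and Tnfrsf9. Of these, Tnfrsf9 was called, Tnfrsf25 was not, and Ltb and Tnfrsf8 were not tested. Cd40 and Tnfrsf26, which were called, were among the members without an upstream window. A match is a run of letters and was not tested as a binding site.

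Among the other ligands, Tnfsf9, which binds Tnfrsf9, was at 23.6, 20.1 and 23.4 CPM in control and 12.4, 12.5 and 12.7 CPM in APPswe libraries. Its groups were far apart for their spread, at 22.4 ± 1.96 against 12.5 ± 0.159 CPM (SD, n = 3). The log2 fold change of -0.84 with a standard error of 0.11 (edgeR adjusted p = 0.00354) was past the adjusted p but under 2-fold. Tnfsf14, a ligand of Ltbr and Tnfrsf14, was at 4.04, 3.99 and 3.67 CPM in control and 2.13, 1.89 and 2.64 CPM in APPswe libraries, again without overlap. Its log2 fold change was -0.81 (standard error 0.20, edgeR adjusted p = 0.0310).

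Tnfsf12, the ligand of Tnfrsf12a, had the highest level per transcript length of all ligands. It was at 79.0, 65.7 and 95.4 CPM in control and 49.1, 57.6 and 63.7 CPM in APPswe libraries, and did not pass the test (log2 fold change -0.50, edgeR adjusted p = 0.0670). Tnfsf13, a cytokine of plasma cells, was at 33.7, 17 and 31.8 CPM in control and 16.8, 13.1 and 14.9 CPM in APPswe libraries. Control replicate 2 was close to the APPswe values, and the log2 fold change of -0.88 missed the threshold (edgeR adjusted p = 0.0542). Without that library it was -1.13 with an adjusted p of 9.13e-06, and Tnfsf13 was called. Tnfsf12 and Tnfsf13 overlap the read-through gene Tnfsfm13, which holds 46.8% and 57.3% of the 50-base words of their transcripts, so their reads could be split by the counting. Summed with Tnfsfm13 into 1 row, they changed by -0.55 on the log2 scale (edgeR adjusted p = 0.0392), an alternative chosen after the data were seen. Tnfsf13b, a survival factor of B cells, was at 1.79, 1.63 and 1.98 CPM in control and 1.85, 0.891 and 1.69 CPM in APPswe libraries, overlapped between the groups and did not pass (log2 fold change -0.28, edgeR adjusted p = 0.546). Tnfsf4, which costimulates T cells, had 19, 2 and 21 counts in control and 10, 8 and 7 counts in APPswe libraries. It missed the threshold (edgeR adjusted p = 0.474) and was called without control replicate 2 (log2 fold change -1.27, edgeR adjusted p = 0.00694).

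Cd40, the costimulatory receptor of B cells and macrophages, was at 7.39, 4.89 and 6.72 CPM in control and 1.07, 1.62 and 1.85 CPM in APPswe libraries. The lowest control value was more than 2-fold above the highest APPswe value. Cd40 fell by 2.06 on the log2 scale (standard error 0.28, edgeR adjusted p = 0.00395), or 4.17-fold, and was called in all 16 alternatives run for it, with adjusted p-values up to 0.0309. It lies at chr2:165055614-165071654.

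Ngfr, the low-affinity neurotrophin receptor with a death domain, was at 50.8, 17.6 and 59.8 CPM in control and 12.8, 15.5 and 16.6 CPM in APPswe libraries. Control replicate 2 was near the highest APPswe library and far from the other controls. The log2 fold change was -1.51 (standard error 0.42, edgeR adjusted p = 0.0440). It was -1.88 without control replicate 2, with an adjusted p of 3.39e-07. With control replicates 1 or 3 or any APPswe library left out, the adjusted p was between 0.110 and 0.153 and the call was lost. Control replicate 2 also had the lowest endothelial and osteoblast markers of the controls, and the part of these markers in the Ngfr values was not tested.

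Tnfrsf26, Tnfrsf22 and Tnfrsf23 lie side by side within 78.8 kb of chromosome 7. Tnfrsf22 and Tnfrsf23 encode decoy receptors of Tnfsf10 in the mouse. All of them were lower in every APPswe library than in any control library. Tnfrsf26 was at 46.3, 36.9 and 43.2 CPM in control and 21, 20.0 and 20.6 CPM in APPswe libraries (log2 fold change -1.04 with a standard error of 0.11, edgeR adjusted p = 0.00165). The call rests on the 2-fold limit, since the value without control replicate 1 was -0.97 with an adjusted p of 0.00814. Tnfrsf23 was at 72.6, 62.1 and 73.4 CPM in control and 46.6, 45.2 and 42.6 CPM in APPswe libraries (log2 fold change -0.63, edgeR adjusted p = 0.00550). Tnfrsf22 was at 23.3, 38.7 and 20.6 CPM in control and 14.5, 14.9 and 14.4 CPM in APPswe libraries, with control replicate 2 the highest. Its log2 fold change was -0.91 (edgeR adjusted p = 0.0363), -0.58 without control replicate 2, and -1.09 without control replicate 3, where it was called. Tnfrsf22 and Tnfrsf23 share 17.3% and 18% of their 50-base words, so reads could be split between them. The sum over the cluster was 139 ± 2.78 CPM in control and 80.0 ± 2.22 CPM in APPswe libraries (SD, n = 3) (log2 fold change -0.80, edgeR adjusted p = 0.000888), again an alternative chosen after the data were seen.

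Tnfrsf9, the costimulatory receptor of Tnfsf9, was low, with 9, 6 and 9 counts in control and 25, 17 and 18 counts in APPswe libraries. The groups did not overlap, and the means were 0.455 ± 0.102 in control and 1.12 ± 0.246 CPM in APPswe libraries (SD, n = 3). No control library reached 10 counts, so Tnfrsf9 was tested only because of the APPswe group. The log2 fold change was 1.29 (standard error 0.33, edgeR adjusted p = 0.0333). The call was lost with DESeq2 (adjusted p = 0.116) and in each fit without 1 library other than control replicate 2, where the adjusted p was between 0.0730 and 0.134.

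The receptors with the highest levels per transcript length did not pass the test. In the authors' FPKM values, fragments per kilobase scaled for depth, Tnfrsf1a, the widely expressed death domain receptor of TNF, was at 146, 126 and 145 in control and 131, 137 and 137 in APPswe libraries. Tnfrsf12a was at 157, 93.8 and 169 FPKM in control and 86.1, 101 and 107 FPKM in APPswe libraries. Ltbr, the lymphotoxin β receptor, was at 59.9, 52.1 and 65.4 FPKM in control and 47.6, 55.7 and 57.8 FPKM in APPswe libraries. The groups overlapped for each of them, and their log2 fold changes of -0.11, -0.59 and -0.21 had edgeR adjusted p-values of 0.380, 0.103 and 0.246. For Tnfrsf12a control replicate 2 was the low control, and without it the change was -0.81 with an adjusted p of 5.01e-05. Tnfrsf12a, Tnfrsf4 and Tnfrsf13b overlap the counted genes Hcfc1r1, Sdf4 and Usp22, so their values are less certain. The Tnfrsf1a and Tnfrsf12a levels differed by less than the spread of Tnfrsf12a between control libraries.

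Tnfrsf1b, the second TNF receptor, found mainly on blood and endothelial cells, was at 184, 198 and 196 CPM in control and 223, 246 and 242 CPM in APPswe libraries. It rose by a small amount past the adjusted p (log2 fold change 0.30, standard error 0.08, edgeR adjusted p = 0.0338). Tnfrsf21, a death domain receptor, was at 22.2, 22.3 and 24.1 CPM in control and 28.1, 27.1 and 30.2 CPM in APPswe libraries (log2 fold change 0.31, edgeR adjusted p = 0.0483). Tnfrsf13b, a receptor of Tnfsf13 and Tnfsf13b, was at 19.2, 20.9 and 18.5 CPM in control and 27.0, 24.8 and 26 CPM in APPswe libraries (log2 fold change 0.41, edgeR adjusted p = 0.0261). In all of these the groups did not overlap and the change was under 2-fold. Tnfrsf10b, the mouse death receptor of Tnfsf10, went the other way, at 51.6, 60.5 and 53.4 CPM in control and 42.1, 41.2 and 41.3 CPM in APPswe libraries (log2 fold change -0.41, edgeR adjusted p = 0.0184).

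**Figure D3:**
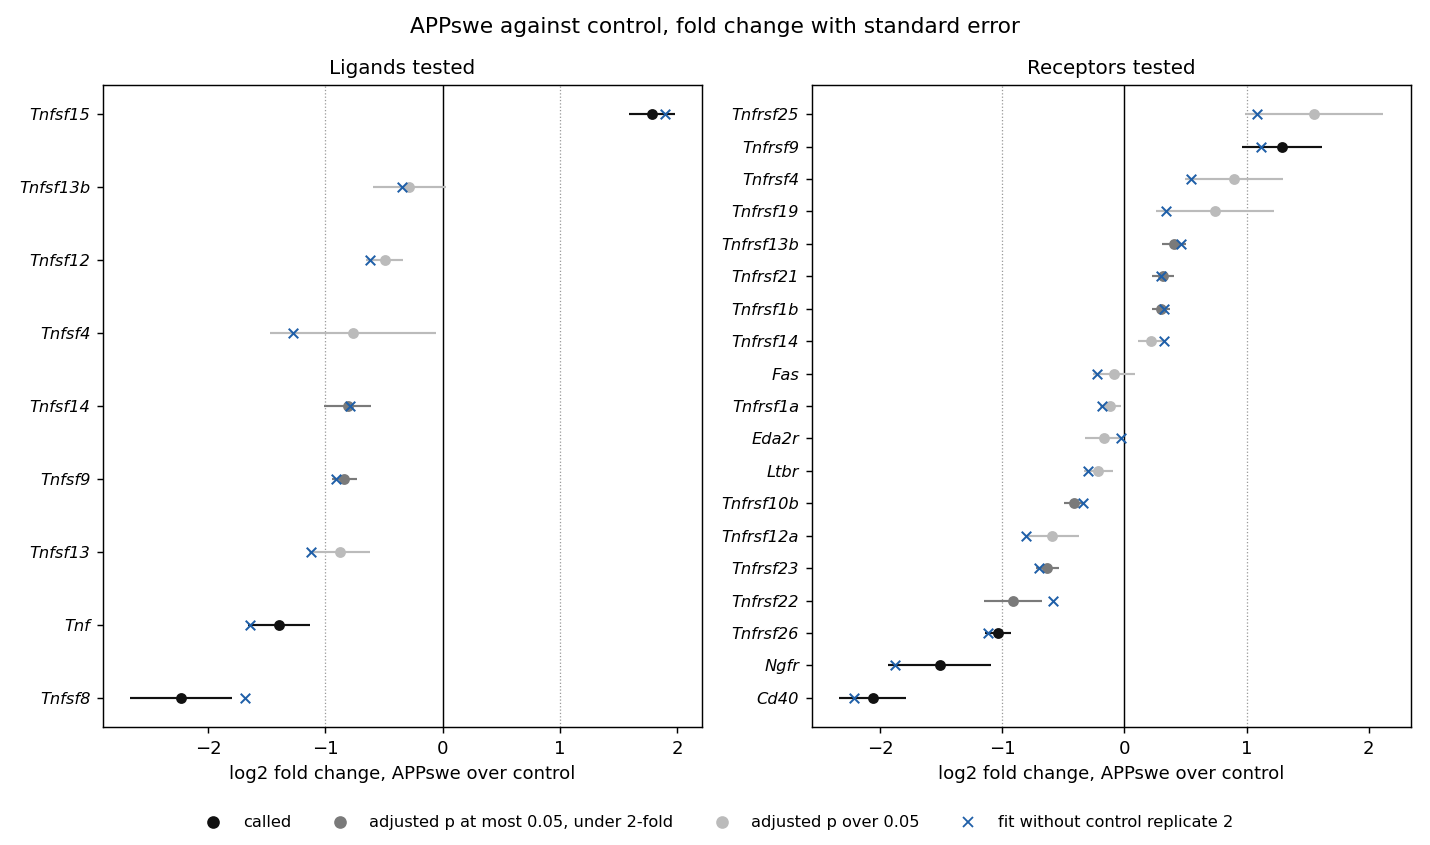
Log2 fold change of APPswe over control for the 28 tested members, with bars of 1 standard error from edgeR, black for called members, dark grey for members past the adjusted p under 2-fold and light grey for the rest. Blue crosses give the fit without control replicate 2; Cd40 lies at -2.06, Tnfsf8 at -2.23 and Tnfsf15 at 1.78, and the crosses lie on the same side of 0 as the points for all of them.

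Where a changed ligand has a known receptor in the family, the 2 were set side by side. Tnf fell, while its receptors Tnfrsf1a and Tnfrsf1b had log2 fold changes of -0.11 and 0.30. Tnfsf15 rose, and its receptor Tnfrsf25 had 14, 3 and 22 counts in control and 29, 43 and 45 counts in APPswe libraries, which did not overlap. The controls alone did not reach the filter, so with all libraries Tnfrsf25 was tested through its APPswe libraries. The log2 fold change of Tnfrsf25 was 1.55 (standard error 0.56, edgeR adjusted p = 0.0942). Without control replicate 2, which had the lowest count, it was 1.09 with an adjusted p of 0.0113, and Tnfrsf25 was called. Tnfsf9 was lower and its receptor Tnfrsf9 higher, the latter at low counts that reached the filter only in APPswe libraries. The groups did not overlap for either gene, as for 45.0% of all genes. Tnfsf14 was lower, and Tnfrsf14, at 37.2, 43.1 and 33.7 CPM in control and 44.5, 44.7 and 43.4 CPM in APPswe libraries, did not pass (log2 fold change 0.22, edgeR adjusted p = 0.180). Tnfsf8 fell, and its receptor Tnfrsf8 was not tested, with 7 to 16 counts in each library. Fas, the death receptor of Fasl, was at 24.1 ± 4.54 CPM in control and 22.7 ± 2.89 CPM in APPswe libraries (SD, n = 3) and did not pass (log2 fold change -0.09, edgeR adjusted p = 0.751), and Fasl had at most 2 counts in any library.

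The other tested members that missed the adjusted p were Tnfrsf4, Tnfrsf19 and Eda2r. In all, 13 tested members missed it, with log2 fold changes from -0.88 to 1.55. Of the 11 members not tested, 6 were ligands (Lta, Ltb, Fasl, Cd70, Tnfsf10 and Tnfsf18) and 5 were receptors (Tnfrsf8, Tnfrsf13c, Tnfrsf17, Tnfrsf18 and Cd27). Lta, Ltb, Fasl, Cd70, Tnfrsf13c, Tnfrsf17 and Cd27, which belong mostly to lymphocytes, had at most 4 counts in every library. Differences in these 7 genes were not detectable at this depth. Tnfsf10, the death ligand TRAIL, had 8, 49 and 10 counts in control and 2, 4 and 4 counts in APPswe libraries. Control replicate 2 held most of these counts, and DESeq2, which does not use the same filter, gave an adjusted p of 0.0256. Tnfsf18 had 12, 2 and 13 counts in control and 0, 1 and 3 counts in APPswe libraries, and was called when control replicate 2 was left out (log2 fold change -3.14, edgeR adjusted p = 0.00220).

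Macrophages are a known source of Tnf, Tnfsf9, Tnfsf13, Tnfsf14 and Cd40, and the macrophage marker sum was lower in APPswe libraries. As a description chosen after the data were seen, each member was therefore also expressed per 1000 CPM of the 13 macrophage markers, a sum in which Lyz2 has the largest share. On this scale Tnf was at 1.55, 1.18 and 1.81 in control and 0.942, 0.970 and 1.05 in APPswe libraries, which still did not overlap. Cd40, Tnfsf8 and Tnfrsf26 also stayed below the controls in every APPswe library. Tnfsf9, Tnfsf13, Tnfsf14, Tnfrsf22, Tnfrsf23, Tnfrsf10b and Ngfr overlapped between the groups on this scale. Tnfsf15 and Tnfrsf9 stayed above. The share of all genes whose groups did not overlap on this scale was not worked out. The scale raises the APPswe values of every gene relative to control, so the members above the controls on it included Tnfrsf1a, Fas and Ltbr, whose CPM overlapped. Tnfsf12, below the controls in CPM, turned to above them, at 3.38, 3.62 and 3.83 in control and 3.93, 4.30 and 4.72 in APPswe libraries. Without control replicate 2, Ngfr was also below the controls on this scale, and Tnfrsf22, Tnfrsf23 and Tnfrsf10b were above them. The part of macrophage content in the lower members was not tested.

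Downstream of the receptors, 45 genes of TNF signalling (sheddases, adaptors, death and NF-κB components) were tested and none was called by edgeR or DESeq2. Of the 45, 18 had an unadjusted p under 0.05, beside 37.2% of all genes, and 10 passed the adjusted p alone with changes under 2-fold, where 22.5% of all genes passed it. The median log2 fold change was -0.019. Because none was called, the 10 past the adjusted p are named here after their values were seen. Birc2 and Birc3, ubiquitin ligases of the receptor complex, Ikbkg, the regulatory subunit of the IκB kinase, and Tnip2 were higher. Cflar, the inhibitor of caspase activation at death receptors, Mlkl, the effector of necroptosis, Ripk1, Cyld, Tnip1 and Rhbdf2, which guides the TNF sheddase, were lower. Cflar was at 114, 116 and 126 CPM in control and 71.9, 73.1 and 71.6 CPM in APPswe libraries (log2 fold change -0.72, edgeR adjusted p = 0.00153).

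Of 20 genes known to be induced by TNF, 17 were tested and 7 called, beside 7.34% of all genes. By direction 5 were higher and 2 lower, and the median log2 fold change of the list was 0.37. The list was chosen with earlier results of these data known, so these counts describe the list only. The neutrophil chemokine Cxcl5 was at 10.4, 8.15 and 9.43 CPM in control and 92.6, 82.3 and 74.5 CPM in APPswe libraries, far above the spread within either group (log2 fold change 3.16, edgeR adjusted p = 0.000287). Tnfaip6, a hyaluronan-binding protein, was at 2.83, 2.19 and 3.10 CPM in control and 14.7, 15.8 and 14.4 CPM in APPswe libraries (log2 fold change 2.46, edgeR adjusted p = 0.000524). The chemokine Cxcl1 was at 4.91, 1.97 and 4.40 CPM in control and 19.8, 18.1 and 18.5 CPM in APPswe libraries (log2 fold change 2.32, edgeR adjusted p = 0.00405). The cytokine Il6 was at 1.62, 1.69 and 1.64 CPM in control and 7.23, 6.41 and 6.07 CPM in APPswe libraries (log2 fold change 1.99, edgeR adjusted p = 0.000991). All of these rose, with no overlap between the groups. Il1b was called at a low level, with 4, 7 and 2 counts in control and 17, 12 and 18 counts in APPswe libraries, so that it was tested only because of its APPswe libraries (log2 fold change 1.81, edgeR adjusted p = 0.0342, DESeq2 adjusted p = 0.0783). The monocyte chemokine Ccl2 was at 175, 178 and 164 CPM in control and 64.3, 67.0 and 68.3 CPM in APPswe libraries, and fell by 1.37 on the log2 scale (edgeR adjusted p = 0.000296). Icam1, an adhesion molecule of leukocytes, was at 160, 101 and 160 CPM in control and 54.9, 56.7 and 54.5 CPM in APPswe libraries, and fell by 1.34 (edgeR adjusted p = 0.00420). So the list did not move in 1 direction. Without control replicate 2, 9 of its 17 tested genes were called, beside 11.5% of all genes, 6 higher and 3 lower. None of the 45 signalling genes was called by edgeR in that fit, with 27 at an unadjusted p under 0.05 (beside 55.0% of all genes) and 24 past the adjusted p alone (beside 48.3%).

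**Figure D4:**
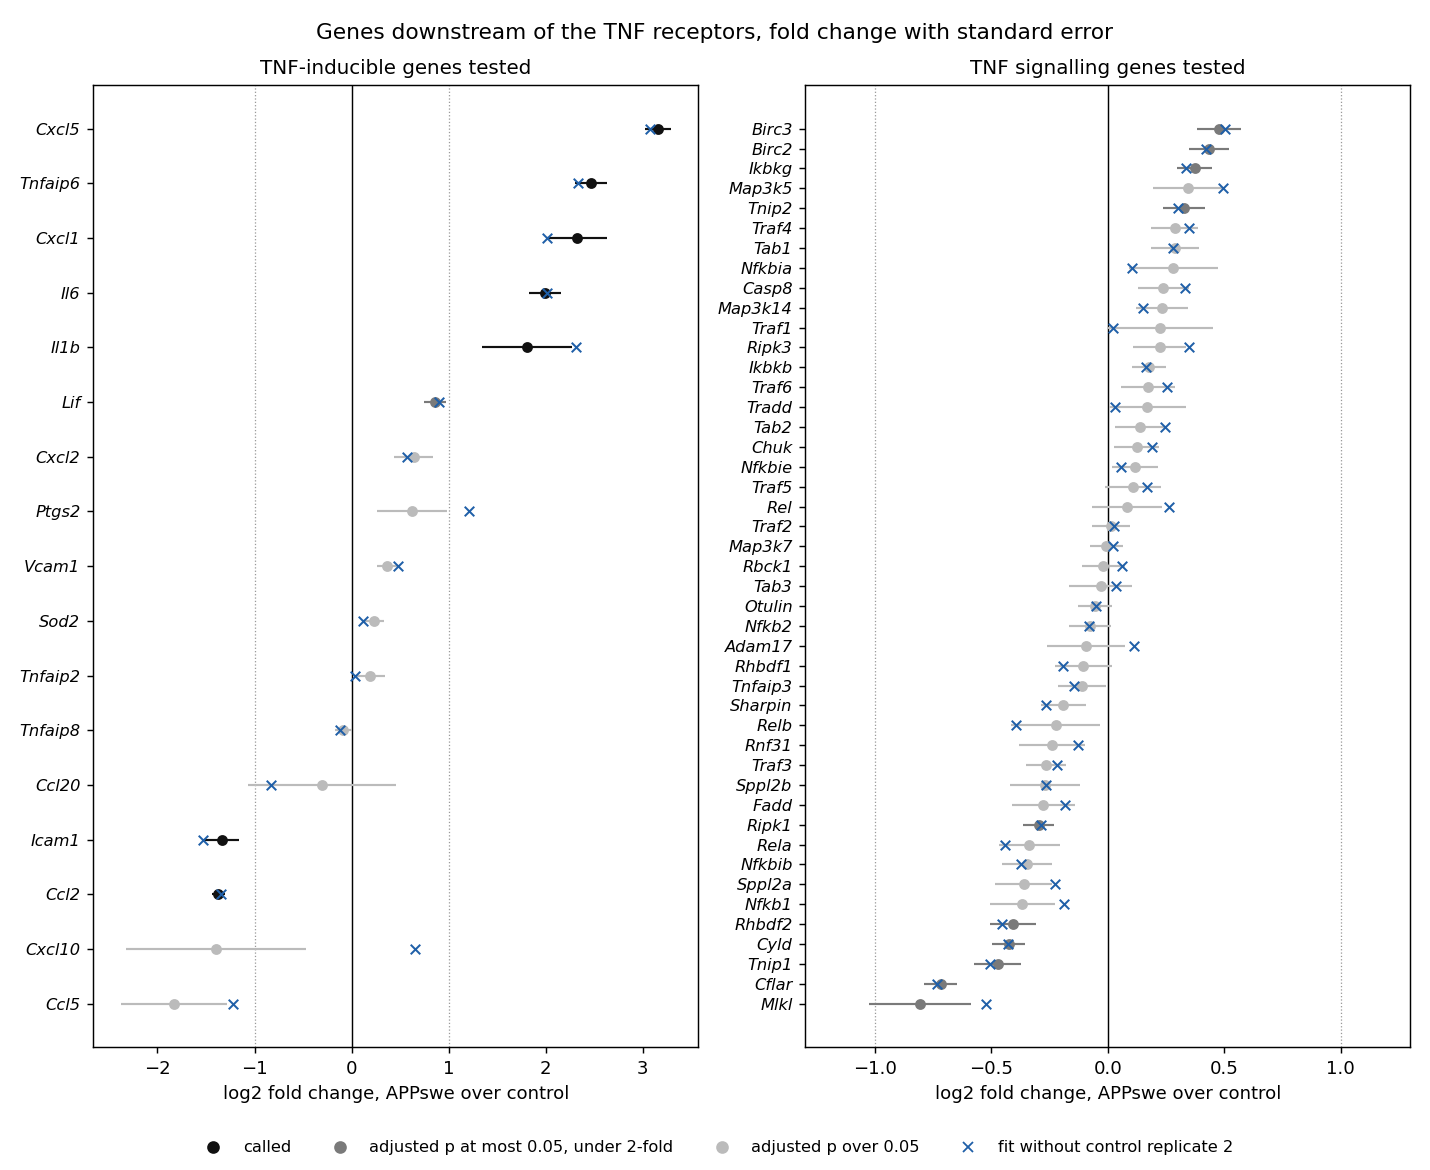
Log2 fold change of APPswe over control, with bars of 1 standard error from edgeR, for the 17 tested TNF-inducible genes (left) and the 45 tested TNF signalling genes (right), which have different axis ranges; colours and crosses are as in the plot of member fold changes. Cxcl5 lies at 3.16 and Ccl2 at -1.37 on the left, and no signalling gene reaches the dotted lines at a log2 fold change of 1 in size.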

How the data were processed

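RNA was sequenced by the authors on the DNBseq platform, and the submitters' processing notes name the genome build GRCm38. The aligner, the counting tool and its use of strand are not given in the sources used here. The authors deposited read counts per gene, without normalization, and FPKM values, whose blank cells were read as 0 (none in a member). The log2 fold changes and p-values that the authors deposited beside them are their own comparison and were not used.

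The tests used edgeR 4.0.16 under R 4.3.3 (TMM, filterByExpr, glmQLFit and glmQLFTest without a covariate) over 13484 of 17830 genes. Standard errors were obtained by dividing the log2 fold change by the root of its F statistic. Calls needed a Benjamini-Hochberg adjusted p no higher than 0.05 together with a change of 1 or more on the log2 scale in either direction, as in the study's methods. FPKM served to compare levels between genes and in 2 alternative tests. Total counts per library were 17263757 to 18398392. No pair of libraries in a group agreed within sampling noise (chi-square over its degrees of freedom was 1.59 for APPswe replicates 2 and 3, 7.38 and 7.90 for the other APPswe pairs, and 6.17 to 80.8 in control), so none was merged. This does not show that they are separate cultures.

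The alternatives comprised DESeq2 1.42.0, edgeR with RLE size factors or without TMM, no filter, at least 10 counts in every library, a replicate block, a term for the style of library naming, single libraries left out, the adjusted p alone, and limma 3.58.1 on log2(FPKM + 1) and log2(FPKM + 0.1). Summing overlapping rows and scaling to macrophage markers were chosen after seeing the data. The tests were also run on simulated counts with known changes. That simulation held no library that stood apart as control replicate 2 does, so it does not cover this feature of the data.

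Members, marker, signalling and inducible lists were chosen with earlier results of these data known. Values per library are given for members past the adjusted p, for their known partners and for the ligands and receptors with the highest FPKM, and for called genes of the 2 pathway lists, while Tnfsf4, Tnfsf10, Tnfsf18 and the signalling genes named were added after their values were seen. All 39 members were found in RefSeq (GRCm38.p6), which gave positions and promoters, and transcript overlap was taken from GENCODE M21.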

Additional observations from a re-analysis of the deposited data

How the results depend on the processing

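Of the 17 alternatives, the adjusted p alone was left out of the tally of single members, which covers up to 16 for each. In that tally 23 named members gave 361 values. Of these, 330 kept their direction and side of the threshold, 28 lost the call, 3 gained it and none turned direction. Of the members outside these 23, Fas (-0.09) reached 0.038 with a single library left out, and Tnfsf4 and Tnfsf18 were called without control replicate 2. The number of members called (7) was 3 with limma on log2(FPKM + 1), 15 at the adjusted p alone and 3 to 11 with single libraries left out. Members called higher (2) numbered 1 with DESeq2, 1 with at least 10 counts in every library, 1 with the library name style, 0 with limma on log2(FPKM + 1), 5 at the adjusted p alone and 1 to 3 without single libraries. Members called lower (5) numbered 3 with limma on either FPKM scale, 10 at the adjusted p alone and 2 to 8 without single libraries. Ligands called (3) numbered 5 at the adjusted p alone and 1 to 6 without single libraries. Receptors called (4) numbered 2 with the library name style, 1 with limma on log2(FPKM + 1), 2 on log2(FPKM + 0.1), 10 at the adjusted p alone and 1 to 5 without single libraries. Signalling genes called (0) numbered 10 at the adjusted p alone and 0 without single libraries, and inducible genes called (7) numbered 6 to 9 without single libraries. The ligand median of -0.81 was -0.34 with limma on log2(FPKM + 1), where the added 1 understates changes of low genes, and -1.02 to -0.71 without single libraries. The receptor median was -0.10 to -0.072 without single libraries. Tnfrsf26 also fell short of 2-fold without TMM (-0.97) and Tnfsf15 with limma on log2(FPKM + 1) (0.55). For the limma, library name style, replicate block and 10-count fits, the share of all genes called was not worked out. The counts from these fits therefore describe the members only. Except where construction shows it, the cause was not tested.

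Both groups share replicate numbers 1 to 3. The deviations of same-numbered libraries correlated at r = 0.0736, -0.0364 and 0.158, and control replicate 2 correlated best with APPswe replicate 1 (r = 0.0819). The library names end alike for replicate 1 of both groups, and for control replicate 3 and APPswe replicate 2 (r = 0.116). With so few libraries, these correlations cannot show whether libraries of the groups were paired or shared a batch. The replicate block followed the replicate numbers, so it did not join control replicate 3 with APPswe replicate 2. Its calls therefore cannot show whether libraries with like names were paired. With the replicate block, 5 members were called, 1 higher, 4 lower, and 2 of them receptors. Ngfr (adjusted p = 0.0965) and Tnfrsf9 (adjusted p = 0.0672) lost their calls.

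With 3 libraries a group and 1 control library apart, small changes of low members were not detectable. At most 4 counts were behind 7 members.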
